A study of Mus musculus with 4 samples.

Results

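RNA-Seq counts of 9 erythroid and heme synthesis genes were examined in libraries from isolated mouse lung tumor-infiltrating CD4+ T cells: *Alas1*, *Alas2*, *Fech*, *Slc25a37*, *Bpgm*, *Mkrn1*, *Slc4a1*, *Hbb-bs* and *Hba-a1*. Every library also held markers of other cells, so the levels are those of the library and not of T cells alone. These 9 genes, of 25239 counted, were chosen by what they do and because *Alas2* was seen to be among the most abundant transcripts, so its high level is a description and not a test. *Alas2* was the 10th most abundant gene by mean level, yet its level varied 3.8-fold between single libraries with no separation of the genotypes. *Bpgm* followed *Alas2* from library to library at a nearly constant ratio, *Mkrn1* and *Fech* followed in the same order over a narrower range, and *Alas1* and *Slc25a37* did not follow it. Of the 7 genes that could be tested between genotypes, only the erythrocyte anion exchanger *Slc4a1* passed, as lower in CD4/ALK4-KO. This is near the 15.4% of all genes tested that were called lower, and the call depended on single libraries. The 2 adult globins were almost uncounted, and each shares most of its sequence with a neighbouring copy.

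Of 4 libraries, 2 came from wild-type (WT) mice and 2 from CD4/ALK4-KO mice, all aged 8 to 10 weeks and male by the methods. The methods name C57BL/6 among the mice purchased, and do not separately give the strain of the floxed line or of the cross. The CD4/ALK4-KO genotype is CD4CreERT2+/-/Acvr1bfl/fl: a tamoxifen-inducible Cre recombinase driven by the *Cd4* promoter deletes floxed *Acvr1b*, which encodes the activin receptor ALK4, in cells that use that promoter. The methods give tamoxifen as 5 daily doses of 75 mg/kg, and do not say separately whether WT mice received it. All mice carried lung tumors grown from 500000 intravenously injected LLC-OVA cells (ovalbumin-expressing Lewis lung carcinoma, a mouse tumor line) and were killed after 18 to 22 days by the labels and after 16 to 20 days by the methods. Leukocytes were taken from digested lungs at a Percoll interface and CD4+ T cells were isolated with a kit. How many animals stand behind a library is not given in the sources used here, so p-values refer to libraries and not to animals. With 2 libraries a genotype, edgeR's test also draws the spread of each gene toward that of all genes tested. A p-value is therefore not a measure of that gene's own spread.

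Heme is made by a chain of enzymes that begins and ends in mitochondria. The first step joins glycine and succinyl-CoA and is carried out by ALAS1 in most cells and by ALAS2 in red cell precursors. Ferrochelatase, encoded by *Fech*, inserts iron at the last step, and mitoferrin-1, encoded by *Slc25a37*, brings that iron into the mitochondrion. Reticulocytes, the last red cell stage that still holds RNA, have no nucleus and carry a few transcripts of very high level, globins above all.

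The counted reads of the 4 libraries summed to between 11823908 and 13943237. The targeted gene *Acvr1b* was not called lower in CD4/ALK4-KO. It had 31.1 and 25.3 CPM (counts per 1000000 counts of the scaled library) in WT and 27.1 and 36.0 CPM in CD4/ALK4-KO. The log2 fold change was 0.16 ± 0.24 (SE), and an adjusted p of 0.66 (edgeR's quasi-likelihood test), so the count of the whole gene does not check the genotype labels. All 8 T cell markers passed the test as higher in the CD4/ALK4-KO libraries as labelled, with summed levels of 329 to 372 CPM in WT and 1800 to 1880 CPM in CD4/ALK4-KO. Markers of other cells were present in every library. Macrophage markers summed to 1450 to 1990 CPM in WT and 1320 to 1560 CPM in CD4/ALK4-KO, and neutrophil markers to 962 to 1430 CPM and 979 to 1510 CPM. B cell markers summed to 43.6 to 54.9 CPM in WT and 143 to 270 CPM in CD4/ALK4-KO, and all 4 were called higher. In bulk libraries such as these, fewer cells of a type and less RNA per cell cannot be told apart. The part of these differences in cell markers in the results that follow was not tested.

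*Alas2*, the erythroid form of the first enzyme, lies at chrX:150547375-150570638 on the forward strand of GRCm38 (mm10). Its counts were 26902 in WT 1, 60458 in WT 2, 34672 in CD4/ALK4-KO 1 and 14512 in CD4/ALK4-KO 2. These are the 34th, 4th, 9th and 57th highest counts of their libraries. Scaled to library size, the levels were 1963, 4469, 2913 and 1175 CPM. WT 2 stood highest and CD4/ALK4-KO 2 lowest, and WT 1 lay between both CD4/ALK4-KO libraries, so the genotypes overlapped. The means were 3216 ± 1772 CPM in WT and 2044 ± 1229 CPM in CD4/ALK4-KO (SD, n = 2 libraries each). The log2 fold change, CD4/ALK4-KO minus WT, was -0.65 ± 0.79 (SE), and the adjusted p was 0.63 in edgeR's quasi-likelihood test over 13919 genes.

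Libraries of 1 genotype differed more in *Alas2* than they did in nearly any other gene. WT 2 had 2.28 times the level of WT 1, and only 0.272% of the 9913 genes at or above a mean of 10 CPM differed by as much between the WT libraries. CD4/ALK4-KO 1 had 2.48 times the level of CD4/ALK4-KO 2, where 0.625% of those genes differed by as much. The direction between genotypes therefore depended on single libraries. Without WT replicate 2 the log2 fold change of *Alas2* was 0.05, and without CD4/ALK4-KO replicate 1 it was -1.42. Without WT replicate 1 it was -1.14 and without CD4/ALK4-KO replicate 2 it was -0.15. Each of these fits has a single library in 1 genotype, which is taken to vary like the rest. Only the sizes of the change are therefore given.

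A stretch of the *Alas2* promoter is shown because erythroid genes are commonly bound by GATA1, the master regulator of red cell genes, at a core of the letters GATAA. The 208 bases that end just before the annotated start, at chrX:150547167-150547374 (GRCm38.p6, RefSeq, forward strand), hold the core on the reverse strand, and its letters are in capitals. For *Hba-a1*, the last 89 bases before the annotated start are shown, at chr11:32283422-32283510 on the forward strand, with the core in capitals.
Alas2: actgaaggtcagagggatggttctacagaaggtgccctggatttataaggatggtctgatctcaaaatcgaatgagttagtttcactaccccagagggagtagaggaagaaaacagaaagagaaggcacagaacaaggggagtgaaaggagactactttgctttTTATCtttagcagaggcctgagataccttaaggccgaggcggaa
Hba-a1: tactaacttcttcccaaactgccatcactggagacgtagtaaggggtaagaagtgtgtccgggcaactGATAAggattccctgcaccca
Of the 9 genes, 6 had a RefSeq window of 250 bases before the RefSeq start, and GATAA on either strand was found in 3 of them, *Alas2*, *Hba-a1* and *Hbb-bs*. Counted by window, as a gene can have several, it was found in 3 of their 8 windows and in 22.6% of all 32851 windows. The letters CCACCC, the type of site that the erythroid factor KLF1 binds, were found on either strand in 3 of the 6, *Alas1*, *Alas2* and *Hba-a1*, which is 3 of the 8 windows, and in 28.1% of all windows. The printed stretches of *Alas2* and *Hba-a1* end at the annotated start, which lies before the RefSeq start, and hold no CCACCC on either strand. Their CCACCC matches thus end at or after the annotated start and before the RefSeq start. All matches given here are of letters only, and *Bpgm*, whose counts ran closest to those of *Alas2*, held neither GATAA nor CCACCC in its window.

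Between genes, levels were compared per length, as CPM per kilobase of annotated exon (RPKM). *Alas2* was highest, at 489 to 1860 RPKM over the 4 libraries, followed by *Bpgm* at 125 to 531 RPKM and *Mkrn1* at 53.7 to 107 RPKM. The ranges of *Alas2* and *Bpgm* overlapped across libraries, yet within each library *Alas2* was 3.46 to 4.02 times the level of *Bpgm*. Below them lay *Slc4a1* at 6.36 to 17.4 RPKM, *Fech* at 9.31 to 15.5 RPKM and *Slc25a37* at 9.56 to 11.1 RPKM, and these neighbours did not differ beyond their spread over the libraries. *Alas1*, the housekeeping form of the first enzyme, had 4.18 to 7.10 RPKM. *Alas2* thus exceeded *Alas1* in each library, 190 times in WT 1, 445 times in WT 2, 171 times in CD4/ALK4-KO 1 and 87.5 times in CD4/ALK4-KO 2. The per-length levels of *Fech* and *Alas1* are counted over all their annotated exons, 13838 and 6174 bases, beside 2403 bases for *Alas2*. A gene whose cells use only the shorter transcripts is understated on this scale, so the ratios of *Alas2* to *Alas1* may be overstated.

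**Figure D1:**
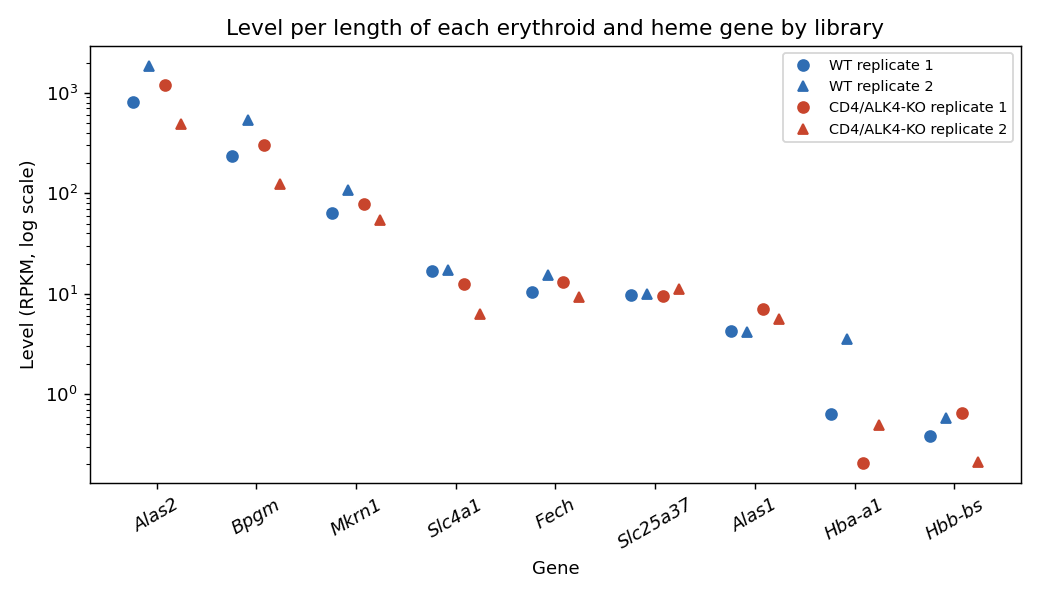
Level of each of the 9 genes in each library, in RPKM on a log scale, ordered by the mean of the 4 libraries; blue marks WT, red CD4/ALK4-KO, circles replicate 1 and triangles replicate 2. *Alas2* ranges from 489 to 1860 RPKM with the genotypes overlapping, whereas *Slc25a37* stays between 9.56 and 11.1 RPKM.

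*Bpgm* encodes bisphosphoglycerate mutase, which makes the red cell metabolite that lowers the oxygen affinity of hemoglobin, and lies at chr6:34476207-34505613 on the forward strand. Its levels were 848, 1905, 1081 and 448 CPM in WT 1, WT 2, CD4/ALK4-KO 1 and CD4/ALK4-KO 2. The order of the libraries was that of *Alas2*, and the genotypes overlapped. The means were 1376 ± 748 CPM in WT and 765 ± 448 CPM in CD4/ALK4-KO (SD, n = 2 each), with a log2 fold change of -0.85 ± 0.73 (SE) and an adjusted p of 0.49 in edgeR's quasi-likelihood test. The number of *Alas2* counts per *Bpgm* count was 2.32, 2.35, 2.69 and 2.62 in the 4 libraries. This ratio spanned 1.16-fold while *Alas2* itself spanned 3.8-fold, so the pair kept nearly the same proportion in libraries that held very different amounts of both. The ratio was lower in both WT libraries than in both CD4/ALK4-KO libraries, a difference that was not tested.

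*Mkrn1*, which encodes a ubiquitin ligase of high level in reticulocytes, and *Fech* shared the order of the libraries but over a narrower range. *Mkrn1* (chr6:39397804-39420462, reverse strand) had 285, 477, 351 and 238 CPM, and its log2 fold change was -0.37 ± 0.25 (SE; adjusted p = 0.28, edgeR's quasi-likelihood test). *Fech* (chr18:64452914-64490251, reverse strand) had 143, 215, 183 and 129 CPM, and its log2 fold change was -0.20 ± 0.24 (adjusted p = 0.56, same test). Both had their highest value in WT 2 and their lowest in CD4/ALK4-KO 2, with the remaining pair between. Per 1000 counts of *Alas2*, *Mkrn1* had 145, 107, 120 and 203 counts and *Fech* had 73.0, 48.1, 62.7 and 110 counts. Both ratios were lowest where *Alas2* was highest and highest where it was lowest. Of the 6 tested genes other than *Alas2*, 3 had its order of libraries, WT 2 above CD4/ALK4-KO 1 above WT 1 above CD4/ALK4-KO 2. That order, looked for after the values of *Alas2* were seen, was found in 3.32% of all 13919 genes tested.

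*Slc25a37* and *Alas1* did not share it. *Slc25a37* (chr14:69241848-69285112, reverse strand) had 58.1, 60.5, 57.6 and 66.8 CPM, a 1.16-fold span, and a log2 fold change of 0.07 ± 0.21 (SE; adjusted p = 0.84, edgeR's quasi-likelihood test). Its highest value fell in CD4/ALK4-KO 2, the library with the least *Alas2*. *Alas1* (chr9:106233455-106248654, reverse strand) had 26.5 and 25.8 CPM in WT and 43.9 and 34.5 CPM in CD4/ALK4-KO. The genotypes did not overlap, CD4/ALK4-KO being higher, which was the case for 32.7% of all genes tested. The log2 fold change of *Alas1* was 0.58 ± 0.23 (SE) with an adjusted p of 0.059 in edgeR's quasi-likelihood test, and so did not pass the threshold of 0.05. Per 1000 counts of *Alas2*, *Alas1* had 13.5, 5.77, 15.1 and 29.4 counts and *Slc25a37* had 29.6, 13.5, 19.8 and 56.8 counts. With libraries scaled to T cell receptor genes, which shifts the median of all genes by -2.18 on the log2 scale, *Alas1* was at -1.61 and *Slc25a37* at -2.11, both above that median. The other scalings left both signs as they were.

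*Slc4a1* encodes band 3, the chloride and bicarbonate exchanger that anchors the red cell skeleton to the membrane, at chr11:102348824-102366203 on the reverse strand. Its counts were 1126 and 1151 in WT and 729 and 384 in CD4/ALK4-KO, which gave 82.2, 85.1, 61.2 and 31.1 CPM. Both CD4/ALK4-KO libraries lay below both WT libraries, as in 34.0% of all genes tested. The means were 83.6 ± 2.07 CPM in WT and 46.2 ± 21.3 CPM in CD4/ALK4-KO (SD, n = 2 each). *Slc4a1* fell by 0.86 on the log2 scale, with an SE of 0.26 and an adjusted p of 0.014 in edgeR's quasi-likelihood test. The call was lost without WT replicate 1 (log2 fold change -0.89), without WT replicate 2 (-0.84) and without CD4/ALK4-KO replicate 2 (-0.45). It was kept without CD4/ALK4-KO replicate 1 (-1.40), and each of these fits has a single library in 1 genotype. Some markers of other cells were lower along with *Slc4a1*. Platelet markers summed to 381 and 295 CPM in WT and 174 and 176 CPM in CD4/ALK4-KO, with 2 of 5 tested called lower, *Pf4* and *Ppbp*. The other tested platelet markers, *Gp9*, *Itga2b* and *Gp1ba*, did not pass, at log2 fold changes of -0.20, 0.06 and 1.49. Lung epithelial markers summed to 864 and 860 CPM in WT and to 548 and 404 CPM in CD4/ALK4-KO, with 4 of 6 called lower and 1 higher. Over all genes tested, 15.4% were called lower. The part of those cells in the fall of *Slc4a1* was not tested.

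Of the 9 genes, 7 passed the filter on low counts and were tested. *Slc4a1* was called lower, none was called higher and 6 did not pass, with a median log2 fold change of -0.37 beside -0.01 over all genes tested. Over all genes tested, 15.4% were called lower and 17.4% higher, so 1 of 7 is near the background. WT 2 was highest and CD4/ALK4-KO 2 lowest in 5 of the 7, against 11.9% of all genes tested. *Alas2* is 1 of those 5, and the pattern was looked for after its values were seen, so that number is a description. The count of calls moved with single libraries and with the scaling. Without CD4/ALK4-KO replicate 1, 4 of the 7 were called lower (*Alas2*, *Bpgm*, *Mkrn1* and *Slc4a1*), against 17.5% of all genes. Without WT replicate 1, 2 of the 7 were called lower (*Alas2* and *Bpgm*), against 5.24%. *Hba-a1* passed the filter in these fits through its 39 counts in WT 2, and its calls there are not counted. With the scaling to T cell receptor genes 6 of the 7 were called lower, against 92.0% of all genes.

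**Figure D2:**
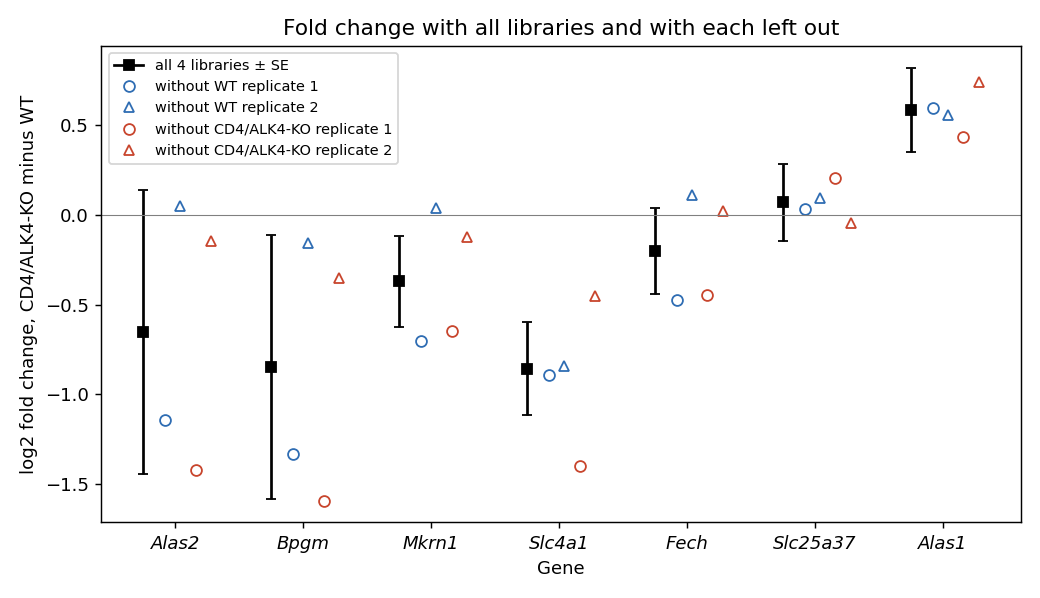
Log2 fold change, CD4/ALK4-KO minus WT, of the 7 genes tested; black squares with bars are the estimates from all 4 libraries ± SE, and open symbols the estimates with 1 library left out. The estimate of *Alas2* is lowest, at -1.42, when CD4/ALK4-KO replicate 1 is left out and highest, at 0.05, when WT replicate 2 is, whereas *Slc4a1* stays below 0 and *Alas1* above 0 in all 5 fits shown.

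The pair of globin members was almost uncounted. *Hba-a1* encodes an adult alpha globin and had 7, 39, 2 and 5 counts, and *Hbb-bs* encodes an adult beta globin and had 4, 6, 6 and 2 counts, in libraries with 14512 to 60458 counts of *Alas2*. Neither passed the filter. Counts of such genes depend on how a read that matches several copies was treated, because htseq-count leaves out reads it cannot give to 1 gene or that align in more than 1 place. *Hba-a1* (chr11:32283511-32284465) and *Hba-a2* (chr11:32296489-32297298) lie on the forward strand, and *Hbb-bs* (chr7:103826534-103828096) and *Hbb-bt* (chr7:103812524-103813996) on the reverse strand. The coding sequences of *Hba-a1* and *Hba-a2* differ at 1 of 426 bases, C381T, and those of *Hbb-bs* and *Hbb-bt* at 1 of 441 bases, C417T, counted from the first base of the start codon, with the base of the first-named gene first. The 75 coding bases around each differing base, the length of a read, are shown because they are among the few reads from coding sequence that could tell the copies apart. The differing base is in capitals.
Hba-a1: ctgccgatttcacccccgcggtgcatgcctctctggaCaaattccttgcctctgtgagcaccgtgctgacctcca
Hba-a2: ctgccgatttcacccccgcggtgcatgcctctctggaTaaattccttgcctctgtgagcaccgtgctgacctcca
Hbb-bs: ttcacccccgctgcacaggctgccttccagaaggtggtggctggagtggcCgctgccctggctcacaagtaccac
Hbb-bt: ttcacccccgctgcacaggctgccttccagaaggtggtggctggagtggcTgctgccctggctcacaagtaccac
Over whole transcripts, 500 of the 736 runs of 75 bases in *Hba-a1* (67.9%) were also found in *Hba-a2*, and 356 of the 691 in *Hbb-bs* (51.5%) were also found in *Hbb-bt*. The values of these copies are therefore uncertain one by one. By contrast, *Bpgm* and *Slc4a1* shared no such run with another gene, *Alas2* shared 9.9% of its runs with the overlapping gene *Apex2*, and the other 4 shared 1.2% to 6.5%.

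Summed over copies, the counted reads of globins stayed far below those of *Alas2*. Such a sum is a lower bound, since reads that match several copies are left out before it, and it is not scaled to the shorter length of globin transcripts. The 2 alpha copies together had 102, 41, 2 and 5 counts, and in WT 1 nearly all of them, 95, were given to *Hba-a2*, whereas in WT 2 39 were given to *Hba-a1*. All 12 globin genes in the files together had 514, 854, 270 and 186 counts, or 19.1, 14.1, 7.79 and 12.8 per 1000 counts of *Alas2*. Most of the beta counts were given to *Hbb-b1*, with 216, 525, 161 and 124 counts, a symbol of another mouse haplotype that GENCODE M21 does not hold. *Hbb-b1* was called lower, with a log2 fold change of -1.21 ± 0.35 (SE; adjusted p = 0.014, edgeR's quasi-likelihood test). The theta globin *Hbq1b*, with 139, 207, 72 and 35 counts, was called lower as well at -1.52 ± 0.37 (adjusted p = 0.003), and its near copy *Hbq1a*, with 50, 66, 26 and 18 counts, did not pass at -1.23 ± 0.48 (adjusted p = 0.055). *Hbq1a* and *Hbq1b* share 29.1% and 21.3% of their 75-base runs with another gene, so their split is uncertain too. The embryonic globins *Hbb-y*, *Hba-x* and *Hbb-bh1* had at most 7 counts in any library, and *Hbb-bt*, *Hbb-b2* and *Hbb-bh2* had 0 in all 4, which allows up to 3 counts each, or 0.252 CPM in the smallest library.

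**Figure D3:**
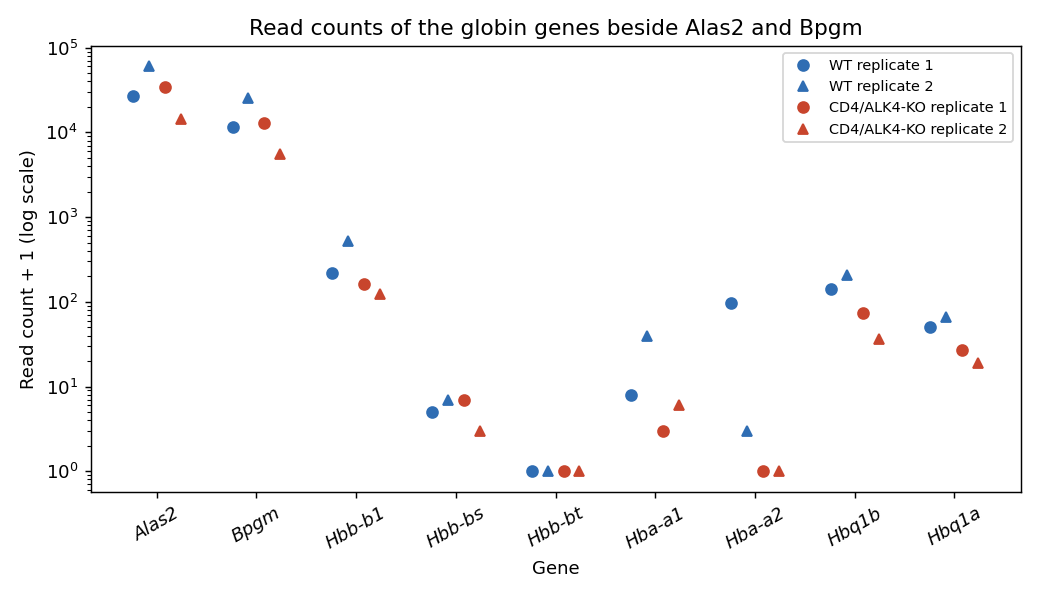
Read counts of *Alas2*, *Bpgm* and 7 globin genes in each library, plotted as count + 1 on a log scale; blue marks WT, red CD4/ALK4-KO, circles replicate 1 and triangles replicate 2. *Alas2* has 14512 to 60458 counts, the highest globin, *Hbb-b1*, 124 to 525, and *Hbb-bt* 0 in every library.

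The genes that ran most like *Alas2*, members of the 9 included, were found by the root mean square difference of log2 CPM, each gene centred on its mean over the 4 libraries, among the 9913 genes at or above a mean of 10 CPM. The nearest were *Bpgm* (0.0962), *Ube2l6* (0.12), *Postn* (0.154), *Isg20* (0.171) and *Trim10* (0.181), where the median of all genes was 0.767. *Ube2l6* encodes a conjugating enzyme of the ubiquitin-like protein ISG15, *Isg20* an exonuclease, *Trim10* a protein of terminal red cell differentiation and *Postn* the matrix protein periostin. *Ube2l6* had 444, 981, 530 and 243 CPM, and its counts per 1000 counts of *Alas2* were 226, 219, 182 and 207. *Postn* had only 14.3, 28.2, 18.1 and 9.48 CPM. With 4 points, likeness of this kind is a description. *Mkrn1* ranked 43rd, *Fech* 124th and *Slc4a1* 143rd among the 9913 genes, whereas *Slc25a37* ranked 4962nd and *Alas1* 6237th.

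Part of the list of late erythroid and reticulocyte genes, to which *Bpgm* and *Mkrn1* belong, had the order of *Alas2*. Of the 13 tested genes of the list that are not among the 9, 7 had it, beside 3.32% of all genes tested. Among the 7 were *Bnip3l*, *Ube2l6*, *Trim10*, *Car2*, *Hemgn* and *Isg20*. The rest did not, among them *Cat* at 129, 163, 171 and 134 CPM. The list was put together with earlier results of these data known, so the count of 7 is a description. *Bnip3l*, which encodes a protein that clears mitochondria from maturing red cells, had 374, 575, 458 and 246 CPM and a log2 fold change of -0.43 ± 0.28 (SE; adjusted p = 0.25, edgeR's quasi-likelihood test). Of the 15 tested genes of the list, 1 was called lower, none higher and 14 did not pass, with a median log2 fold change of -0.46. The share called lower over all genes tested was 15.4%. The gene called was *Prdx2*, an abundant red cell antioxidant enzyme that other cells also make, at 576, 677, 369 and 270 CPM and a log2 fold change of -0.97 ± 0.22 (adjusted p = 0.002, same test).

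**Figure D4:**
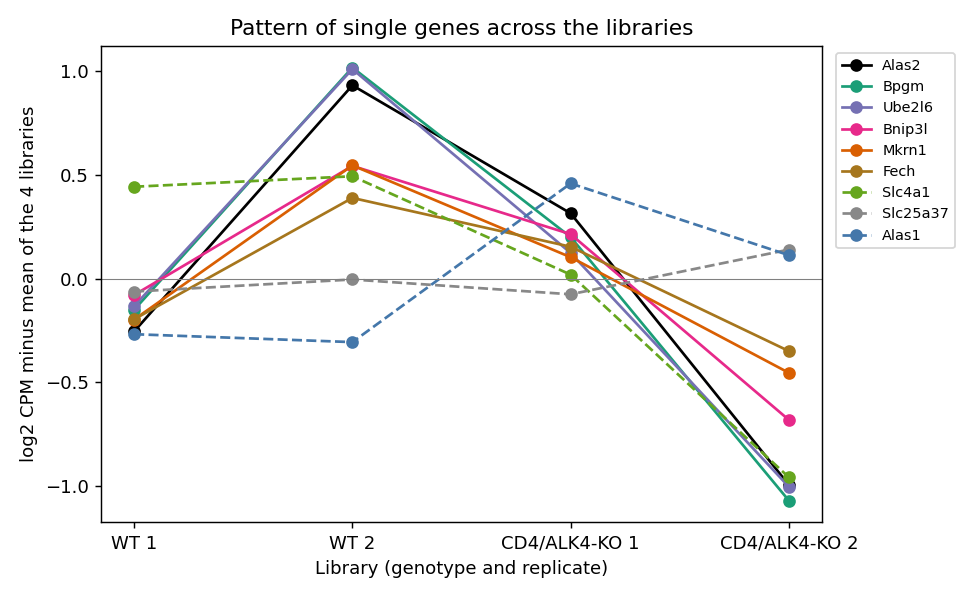
Log2 CPM of single genes minus their mean over the 4 libraries; each line is 1 gene and each point 1 library, with solid lines for genes in the order of *Alas2* and dashed lines for those that are not. *Alas2*, *Bpgm*, *Ube2l6* and *Bnip3l* peak in WT 2 and are lowest in CD4/ALK4-KO 2, while *Slc25a37* spans only 1.16-fold.

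Among the 9 enzymes of heme synthesis, 1 was called lower, none higher and 8 did not pass, with a median log2 fold change of -0.20. The share called lower over all genes tested was 15.4%. The enzyme called was *Alad*, which carries out the second step, at 35.9, 27.7, 15.5 and 20.6 CPM and a log2 fold change of -0.81 ± 0.26 (SE; adjusted p = 0.019, edgeR's quasi-likelihood test). *Urod* had 74.3, 90.9, 59.7 and 57.7 CPM (log2 fold change -0.49, adjusted p = 0.084) in the same test, and did not have the order of *Alas2*. The log2 fold changes of *Uros*, *Cpox* and *Ppox* were -0.02, 0.00 and 0.43, with adjusted p of 0.96, 0.99 and 0.24. Because *Alas2* makes up most of the list's summed level, that sum followed it, at 2330, 4920, 3300 and 1500 CPM.

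Over all genes tested, 15.4% were called lower and 17.4% higher. Of 14 genes of mitochondrial heme and iron supply, the list that holds *Slc25a37*, 4 were called lower and none higher. These were *Slc25a39*, a mitochondrial glutathione carrier, at 154, 181, 104 and 87.9 CPM and a log2 fold change of -0.80 ± 0.21 (SE; adjusted p = 0.0065, edgeR's quasi-likelihood test), the iron-sulfur cluster scaffold *Iscu* at -0.74 ± 0.23 (adjusted p = 0.016), the glutaredoxin *Glrx5* at -0.70 ± 0.23 (adjusted p = 0.019) and the heme-binding *Pgrmc1* at -0.59 ± 0.22 (adjusted p = 0.045). Over the whole list, both CD4/ALK4-KO libraries lay below both WT libraries in 7 of 14 genes, beside 34.0% of all genes tested. All of them are also made by cells other than red cell precursors.

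Of 18 tested genes of the erythroid membrane, the list that holds *Slc4a1*, 3 were called lower, none higher and 15 did not pass, with a median log2 fold change of -0.54. This is near the 15.4% of all genes tested that were called lower. Those called beside *Slc4a1* were *Epb42*, encoding protein 4.2, at -1.03 ± 0.37 (SE; adjusted p = 0.045 by edgeR's quasi-likelihood test), with *Add2*, encoding beta-adducin, at -1.42 ± 0.33 (adjusted p = 0.0025). *Epb41*, encoding the widely made protein 4.1, had 162, 211, 227 and 182 CPM and a log2 fold change of 0.13 (adjusted p = 0.70).

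Some of the early erythroid factors and their receptor had few counts while *Alas2* had at least 14512. *Klf1* had 8, 9, 3 and 3 counts, the erythropoietin receptor *Epor* 7, 14, 2 and 2, and *Gata1* 8, 17, 36 and 26. *Gata1* had a log2 fold change of 1.47 ± 0.60 (SE; adjusted p = 0.065, edgeR's quasi-likelihood test), opposite in sign to that of *Alas2*. Of 6 tested factors, *Sox6* was called higher at 1.13 ± 0.40 (adjusted p = 0.032) and none lower, beside 17.4% called higher over all genes tested. The 3 most abundant, *Ldb1*, *Lmo2* and *Zfpm1*, had 107 to 1143 counts, are used in other blood cells too and did not pass (log2 fold changes 0.44, 0.21 and 0.53). Of the 10 erythroid markers, 9 were in the files, with a summed level of 137 and 203 CPM in WT and 134 and 48.2 CPM in CD4/ALK4-KO, and none of the 9 was at 0 in all libraries. Their sum was highest in WT 2 and lowest in CD4/ALK4-KO 2.

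Some of the genes that handle heme and iron after synthesis, and of the factors that heme regulates, were called. The shares over all genes tested were 15.4% lower and 17.4% higher. *Hmox1*, encoding the heme-degrading oxygenase, had 699, 691, 578 and 684 CPM and a log2 fold change of -0.14 ± 0.21 (SE; adjusted p = 0.66, edgeR's quasi-likelihood test). Of the 8 genes of heme breakdown and export, only biliverdin reductase B, *Blvrb*, was called, lower at -0.82 ± 0.22 (adjusted p = 0.0057). Of 11 tested iron genes, 2 were called lower: ferritin heavy chain *Fth1*, at 4260, 4207, 3022 and 2661 CPM (-0.58 ± 0.19, adjusted p = 0.02), and the ferrireductase *Steap3* (-1.01 ± 0.33, adjusted p = 0.022). Another 2 of the 11 had the order of *Alas2* and did not pass, the iron exporter *Slc40a1*, at 30.9, 74.3, 54.9 and 28.9 CPM (-0.33, adjusted p = 0.70), and the ferritin receptor *Ncoa4*, at 109, 133, 119 and 68.4 CPM (-0.37, adjusted p = 0.25). Of 6 tested heme-regulated factors, 2 were called higher, the repressors *Bach1* (0.71 ± 0.22, adjusted p = 0.015) and *Bach2* (2.84 ± 0.30, adjusted p = 3.5e-07). *Bach2* is also a lymphocyte gene, with 3.28 and 3.84 CPM in WT and 23.4 and 27.6 CPM in CD4/ALK4-KO, and moved in the direction of both the T cell and the B cell markers. Their part in it was not tested.

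Outside the 9 genes, 83 listed genes were tested and 16 called, 13 lower (15.7%, beside 15.4% of all genes tested) and 3 higher (3.61%, beside 17.4%). The share called lower is thus at the background. Each of the 16 kept its direction when any 1 library was left out. Only *Add2* and *Bach2* kept the call in all 4 of those fits. Without WT replicate 1, 7 of the 16 were still called, this pair with *Slc25a39*, *Hbb-b1*, *Hbq1b*, *Epb42* and *Prdx2*. Without WT replicate 2, 5 were still called, with *Alad*, *Sox6* and *Steap3* beside that pair. Without CD4/ALK4-KO replicate 1 the calls of *Alad*, *Iscu*, *Sox6* and *Steap3* were lost, and without CD4/ALK4-KO replicate 2 those of *Pgrmc1* and *Epb42*.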

How the data were processed

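The authors mapped single-end reads of 75 bp to mm10 using HISAT2 and summed them per gene by htseq-count (intersection-nonempty). The deposited values are raw counts for each gene symbol in 4 libraries. The annotation, strand option and tool versions are not given in the sources used here. Groups were taken from the labels. Counts were tested with edgeR 4.0.16 in R 4.3.3 (filterByExpr, TMM, robust quasi-likelihood test of genotype alone, Benjamini-Hochberg adjustment over 13919 genes, threshold 0.05). The SE of a log2 fold change was its size over the root of F. The scripts were tested on simulated data. CPM use TMM-adjusted library sizes, and RPKM the union of exons of GENCODE M21 (GRCm38), which matched 24321 of 25239 symbols. Shared runs of 75 bases were searched in the GENCODE M21 transcripts, and promoters come from RefSeq (GRCm38.p6).

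The 9 members, gene lists and tests were chosen with earlier results of these data known. Named were all members, heme synthesis enzymes and globins, of each other list the 3 genes of highest mean CPM and the 2 called genes with the largest change, and the 5 genes most like *Alas2*. Some of these genes are not reported here. Genes named beside these were chosen after their values were seen. Alternatives were a block on the replicate number, other scalings (DESeq2's size factors, upper quartile, T cell receptor genes, TMM without the listed erythroid genes), no filter, a minimum of 10 counts per library, DESeq2 1.42.0 and leaving out each library.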

Additional observations from a re-analysis of the deposited data

How the results depend on the processing

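The count of members called lower (1 with all libraries) was 6 with the scaling to T cell receptor genes, 2 with no filter on low counts (*Hba-a1* added, a gene of few counts) and 1 under each other scaling, the stricter filter and DESeq2. It ranged from 0 to 5 when each library was left out in turn, or 0 to 4 without *Hba-a1*, which enters those fits through 1 library, and the count called higher (0) ranged from 0 to 1, *Alas1* being called without CD4/ALK4-KO replicate 2. The scaling to T cell receptor genes shifted the median of all genes by -2.18, called 48 genes higher and 12803 lower, and turned *Alas1* to -1.61 and *Slc25a37* to -2.11, while the other scalings shifted it by -0.07 to 0.01. The log2 fold change of *Alas2* ranged from -1.42 to 0.0492 with a library left out, that of *Fech* from -0.47 to 0.11, of *Mkrn1* from -0.70 to 0.0396 and of *Slc25a37* from -0.0483 to 0.20. The labels give both genotypes the replicate numbers 1 and 2 without saying that a number marks a shared batch. Deviations of same-numbered libraries from their genotype means correlated at -0.263, which does not show a pairing by number. With the replicate number as a block, 2 members were called lower (*Bpgm* beside *Slc4a1*), *Alas2* was at -0.68 and 1768 genes were called higher and 1444 lower. With the numbers crossed, an alternative chosen after seeing the data, 3 members were called lower, 1 higher, *Alas2* was at -0.68 and called at an adjusted p of 0.0001 by edgeR's test, and 3118 genes were called higher and 3037 lower. With 2 libraries a genotype and no block, the error of *Alas2* was wider than its fold change. Causes were not tested.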
